A study of Mus musculus with 18 samples.

Results

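The genes described here act on extracellular ATP and adenosine, and they were read in the sorted cell types of the mouse glomerulus. The group held 9 genes, namely *Entpd1*, *Nt5e*, *Adora1*, *Adora2a*, *Adora2b*, *P2rx4*, *P2rx7*, *P2ry1* and *P2ry2*, of 22909 gene symbols in the deposited table. All 9 were found by symbol. The genes were selected on their known role, with earlier results of the same arrays, their signals by cell type and genotype, in view. *Entpd1* and *Adora1* each had a second transcript cluster (a set of probes summarised to 1 value), and the cluster to use was chosen by the higher mean signal over the 18 arrays. That mean was 413.5 against 36.8 for *Entpd1* and 101.5 against 69.3 for *Adora1*, and in each case the cluster left aside also carried the symbol of another gene.

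Cells release ATP when they are stretched, injured or activated, and the nucleotide then acts on receptors of the same or neighbouring cells. Ectonucleotidases on the cell surface cut it down stepwise, *Entpd1* (CD39) from ATP and ADP to AMP and *Nt5e* (CD73) from AMP to adenosine, so that their products engage a different set of receptors. In the glomerulus this chemistry is known for its part in platelet inhibition, in mesangial contraction and in the control of vascular tone.

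Podocytes, mesangial cells and endothelial cells were taken by FACS from dissociated glomeruli of mice 5 weeks old, each by a GFP reporter transgene (*Meis1-GFP* for mesangial and *Tie2-GFP* for endothelial cells), and total RNA was amplified and hybridised to Affymetrix Mouse Gene 1.0 ST arrays. Arrays labelled mutant came from CD2AP-/- mice, which carry the *Cd2ap* tm1Shaw allele in all cells, and the controls from mice labelled wildtype, with 3 arrays for each of the 6 groups. The mesangial controls are titled control rather than wild type, and their column names carry "+:-", which reads as heterozygous, where those of the other controls carry 2 plus signs. Their genotype label is wildtype, and they are called wild type here on that label alone. The study record calls the arrays biological triplicates. The letters A, B and C name the arrays of each group by column order and mean nothing more. A bulk sample cannot tell fewer cells of a type from less RNA per cell.

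The check of the labels and of cell purity came before any result. *Cd2ap* signal in mutant arrays against wild type arrays ran from 797.0 to 870.4 against 921.6 to 1123 in mesangial cells and from 1478 to 1512 against 1546 to 2108 in podocytes, but from 891.4 to 965.8 against 757.2 to 858.5 in endothelial cells. Whether the probes of this cluster lie in the altered stretch of the gene is not given in the sources used here, so directions rest on the labels. The defining markers of each sorted cell type were all at 100 or more on its own arrays. The wild type mesangial array C stood apart, with a summed signal of 7527 over the 7 endothelial markers and 3243 over the 6 podocyte markers, where the other 5 mesangial arrays ran from 2097 to 2640 and from 636.1 to 914.0. Wild type podocyte arrays carried more signal of both other cell types than mutant ones, from 4224 to 5625 against 655.8 to 2484 for the endothelial markers and from 2082 to 2764 against 688.5 to 1866 for the 5 mesangial markers. The 4 smooth muscle and juxtaglomerular markers ran the other way in podocytes, from 956.6 to 2903 on mutant against 703.7 to 733.7 on wild type arrays. In mesangial cells the mesangial markers summed to 4353 to 4869 on mutant against 6360 to 7229 on wild type arrays, with 2 of the 5 called lower. *Meis1*, the gene of the reporter, ran the other way without overlap. Its signals were 320.6, 271.2 and 231.0 on mutant and 209.7, 224.0 and 189.1 on wild type mesangial arrays. The 7 endothelial markers all had a negative value in the mesangial genotype comparison (median -0.53). *Tek* and *Ehd3* were called lower and did not overlap between genotypes, array C aside or not. With array C aside, *Pecam1*, *Cdh5*, *Kdr*, *Flt1* and *Emcn* had higher means on mutant than on wild type arrays. *Emcn* was then 1036 to 1114 on mutant against 667.3 and 942.9 on wild type mesangial arrays. The smooth muscle and juxtaglomerular sum was 1516 to 2784 on mutant against 1220 to 1515 on wild type mesangial arrays. Of these markers limma called 0 of 4, and 2 had an unadjusted p under 0.05. The 10 leukocyte markers summed to 2169 on mutant mesangial array B and to 1485 on wild type mesangial array C, against 528.6 to 687.1 on the other mesangial arrays, and wild type array C also had the highest tubule marker sum, 826.9. All 4 platelet markers stayed below 100 on every array. Mutant podocyte arrays were the least alike, with correlations across clusters of 0.967 to 0.971 between arrays, against 0.980 to 0.992 in the other groups. Without mutant podocyte array A, the transcript clusters called by genotype in podocytes went from 7 to 344 (2.88% of those tested). Those called for the difference in genotype effect, endothelial minus podocyte cells, went from 285 to 1865 (13.8%). Gains of single genes without this array, given below, thus go with a gain over all genes.

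**Figure D1:**
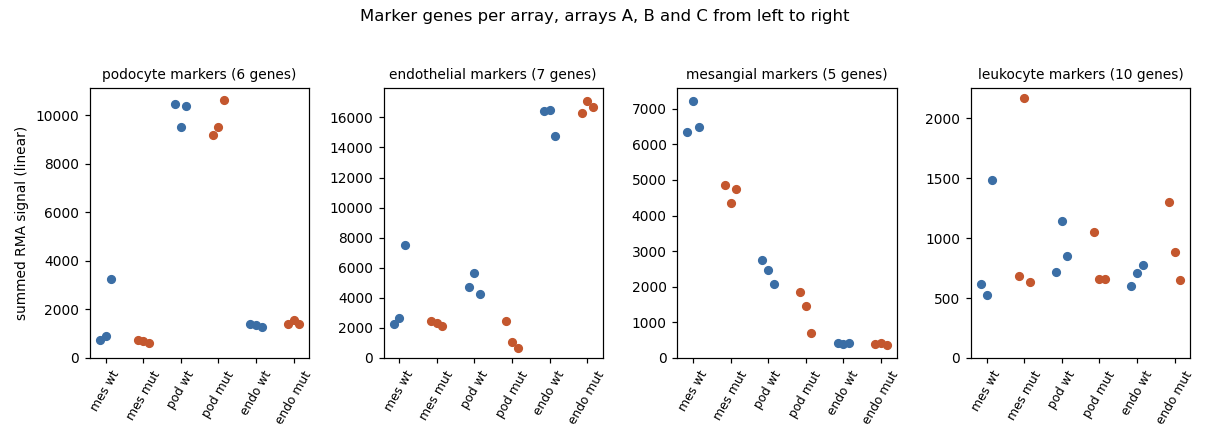
Summed RMA signal (linear axis from 0) of the podocyte, endothelial, mesangial and leukocyte marker genes on each array, arrays A, B and C from left to right in each group, blue for wild type and orange for mutant. The wild type mesangial array C lies far above the other mesangial arrays for podocyte and endothelial markers, and the wild type podocyte arrays lie above the mutant ones for endothelial and mesangial markers.

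A signal of 100 was the minimum the study's methods set, and genes entered a comparison when at least 1 of its arrays reached it. *Adora2b* (44.5 to 63.6) and *P2ry2* (51.8 to 84.4) stayed below it on all 18 arrays and were tested in no comparison at this minimum. With no minimum, limma called *Adora2b* for mutant podocyte minus endothelial (0.28, adjusted p 0.0319), where 30% of all clusters were called. It called *P2ry2* for mutant mesangial minus endothelial (-0.42, adjusted p 0.0466), where 11.2% were called. The sizes of both depend on the array background. The other 7 genes could be followed, and their levels differed by cell type. *Entpd1*, *P2rx7* and *P2ry1* had their highest mean signal in endothelial cells and *Nt5e* in mesangial cells. *P2rx4* was present in all 3 cell types.

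**Figure D2:**
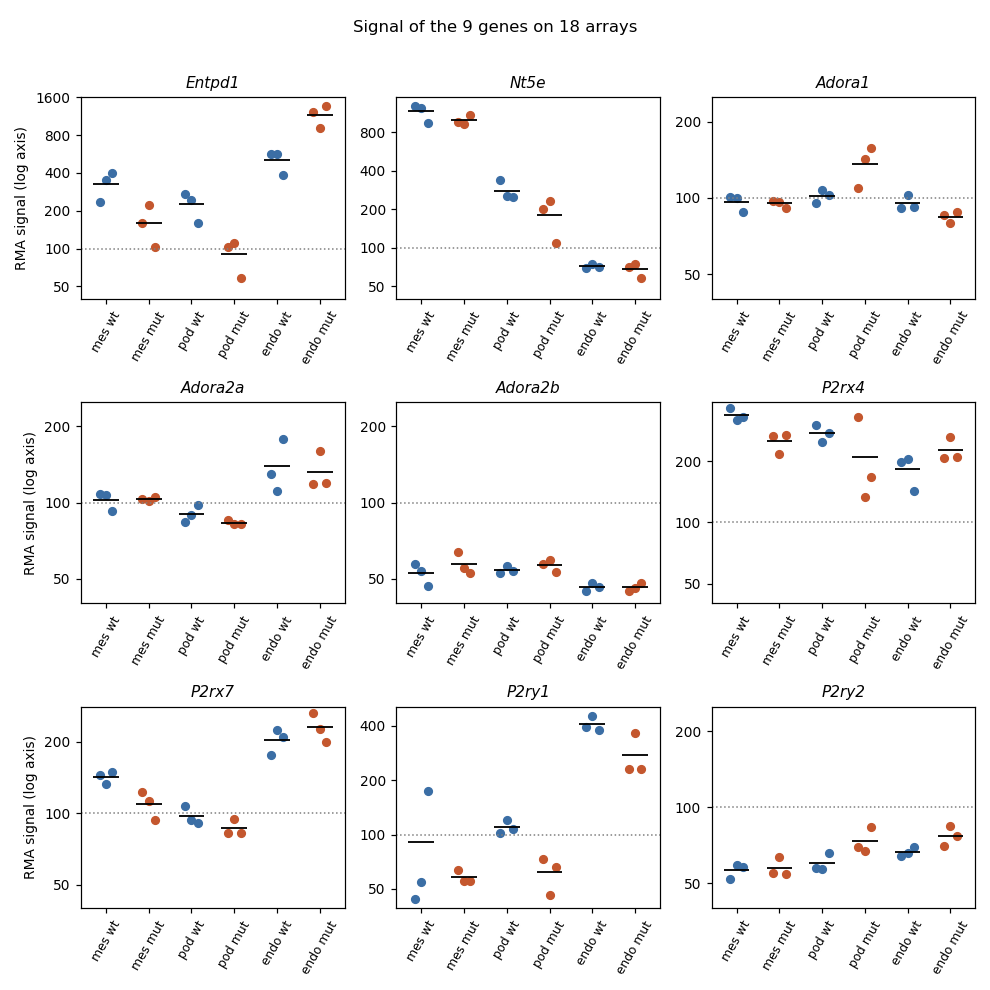
RMA signal (log axis) of each of the 9 genes on 18 arrays, 1 point per array, blue for wild type and orange for mutant, with a line at the mean of the 3 arrays and a dotted line at the minimum of 100. The *Entpd1* points labelled mutant lie above the wild type ones in endothelial cells (called) and below them in the other cell types (not called), *Nt5e* steps down from mesangial to podocyte to endothelial arrays, and *Adora2b* and *P2ry2* stay below the dotted line.

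The promoters of the genes that differed most between cell types are shown because the cell type pattern is the main feature of the data, and *Entpd1* because it alone was called between genotypes. They are 300 bases long, 250 before and 50 after the start, from RefSeq on build GRCm38.p6, where 8 of the 9 genes had an entry. *Entpd1* had 2 starts. Capitals mark the GC box GGGCGG, the letters to which Sp1 binds, read on either strand and with overlaps counted.
Entpd1 upstream start, chr19:40612116-40612415, plus strand: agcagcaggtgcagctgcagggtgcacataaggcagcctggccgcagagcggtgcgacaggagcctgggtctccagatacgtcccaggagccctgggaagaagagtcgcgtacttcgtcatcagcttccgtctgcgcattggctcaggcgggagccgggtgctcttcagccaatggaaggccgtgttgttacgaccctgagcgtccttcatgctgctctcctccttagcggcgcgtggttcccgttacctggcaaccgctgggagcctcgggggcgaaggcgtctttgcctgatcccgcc
Entpd1 downstream start, chr19:40659520-40659819, plus strand: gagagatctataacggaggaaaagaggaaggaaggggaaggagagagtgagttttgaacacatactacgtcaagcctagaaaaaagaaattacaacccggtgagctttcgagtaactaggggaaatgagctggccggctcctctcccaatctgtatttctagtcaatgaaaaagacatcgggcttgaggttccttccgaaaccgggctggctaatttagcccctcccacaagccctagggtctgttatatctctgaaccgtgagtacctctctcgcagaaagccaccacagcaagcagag
Nt5e, chr9:88327359-88327658, plus strand: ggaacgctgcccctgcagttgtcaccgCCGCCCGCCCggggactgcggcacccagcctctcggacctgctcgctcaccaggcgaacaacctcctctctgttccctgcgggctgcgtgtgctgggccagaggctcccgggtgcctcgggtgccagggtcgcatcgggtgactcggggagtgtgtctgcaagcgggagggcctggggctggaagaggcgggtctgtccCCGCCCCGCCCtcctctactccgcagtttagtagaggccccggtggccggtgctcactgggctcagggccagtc
P2ry1, chr3:61002535-61002834, plus strand: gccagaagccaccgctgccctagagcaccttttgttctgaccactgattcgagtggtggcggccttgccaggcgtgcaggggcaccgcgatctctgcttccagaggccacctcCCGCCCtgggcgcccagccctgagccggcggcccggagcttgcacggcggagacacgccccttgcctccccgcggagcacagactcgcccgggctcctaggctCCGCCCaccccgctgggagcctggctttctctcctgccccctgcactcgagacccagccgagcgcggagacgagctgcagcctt

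The windows at the 2 *Entpd1* starts held no GC box, although the upstream one had a GC content of 64% and the downstream one of 48.7%. The *Nt5e* window held 4 matches in a pair of overlapping runs at a GC content of 71%, and the *P2ry1* window held 2 at 70.7%. Of 32851 promoter windows of the same length, 35.7% held a GC box. The other motifs searched on both strands, the hypoxia response core ACGTG (19.6% of windows), the STAT site TTCNNNGAA (8.3%) and the cAMP response element TGACGTCA (1.79%), were not in the 4 windows shown. A match or its absence describes these letters only.

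*Entpd1*, the ectonucleotidase that removes ATP and ADP, was the gene of the group whose genotype difference was called, and it was higher on endothelial arrays labelled mutant. The direction rests on the labels, since *Cd2ap* was not lower on these arrays. In endothelial cells the signals were 563.4, 569.1 and 384.2 on wild type arrays A, B and C and 1219.8, 913.5 and 1370.9 on arrays labelled mutant. In mesangial cells they were 236.6, 350.9 and 400.5 on wild type and 160.0, 221.4 and 102.6 on mutant arrays. In podocytes they were 272.9, 245.8 and 159.4 on wild type and 103.3, 111.3 and 57.9 on mutant arrays. Every mutant endothelial array lay above every wild type one, and every mutant mesangial and podocyte array lay below its own controls.

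In endothelial cells the mean signal of *Entpd1* was 1168 ± 233 (SD, n = 3) on mutant and 505.6 ± 105 on wild type arrays. The difference was 1.21 on the log2 scale (SE 0.20, 95% confidence interval 0.75 to 1.67), a fold of 2.31, with an adjusted p of 0.0313 by limma. The call was lost without mutant array A (adjusted p 0.139) or C (0.0905), without wild type array B (0.0736) or C (0.0972), with no signal minimum (0.104) and in a fit of all 18 arrays (0.0638). The size ran from 1.02 to 1.38 when any 1 array was left out. Leukocytes are known to carry CD39, and the 10 leukocyte markers summed to 648.6 to 1301 on mutant and 601.8 to 774.4 on wild type arrays. These sums were 1301, 887.0 and 648.6 on mutant arrays A, B and C, and their part in the value was not tested.

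In the other cell types the difference ran the opposite way without passing the adjusted threshold. In mesangial cells it was -1.06 (SE 0.31, adjusted p 0.122), and in podocytes it was -1.33 (SE 0.30, adjusted p 0.154, or 0.0188 in a fit of all 18 arrays). Without wild type mesangial array C, which had the highest wild type mesangial signal, the mesangial value was -0.91 (adjusted p 0.218). The endothelial markers, with 7 of 7 differences below 0 in both cell types, and the mesangial marker sums ran the same way. In mesangial cells *Meis1* was an exception. With wild type array C set aside, *Pecam1*, *Cdh5*, *Kdr*, *Flt1* and *Emcn* had higher means on mutant than on wild type mesangial arrays. In each group of mesangial arrays the highest *Entpd1* signal came from the array of highest leukocyte sum (B of the mutant and C of the wild type arrays). The endothelial and podocyte groups did not share this. Mutant endothelial array C, wild type podocyte array A and mutant podocyte array B had the highest *Entpd1* signal and the lowest leukocyte sum of their groups. Wild type endothelial array C had the lowest *Entpd1* signal and the highest leukocyte sum of its group. The part of these markers in the values was not tested. The test of the difference in genotype effect between cell types called *Entpd1* with endothelial against mesangial cells (2.28, SE 0.44, adjusted p 0.0176). It also called *Entpd1* with endothelial against podocyte cells (2.55, SE 0.44, adjusted p 0.0166). Each of these shares the endothelial arrays with the other. The endothelial against mesangial call was lost without mutant endothelial array A (adjusted p 0.0535) or C (0.0512) or wild type endothelial array C (0.0604), and the endothelial against podocyte call without mutant endothelial array A (0.0508), wild type endothelial array C (0.0524) or wild type podocyte array A (0.0519). With podocytes against mesangial cells the difference was -0.27 (SE 0.44, adjusted p 0.876).

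Across wild type cell types the order of *Entpd1* was endothelial, mesangial, podocyte, and the wild type podocyte arrays lay below the endothelial ones by 1.18 on the log2 scale (adjusted p 0.00515). Its neighbours in that order were not separated by the test, with differences of -0.63 for mesangial minus endothelial (adjusted p 0.0901) and -0.55 for podocyte minus mesangial (adjusted p 0.142). Among mutant arrays the gap widened to -3.72 for podocyte minus endothelial (13.2-fold, adjusted p 1.51e-05) and -2.91 for mesangial minus endothelial (7.49-fold, adjusted p 9.39e-05). Mutant podocyte signals, from 57.9 to 111.3, lay near or below the minimum, so the size of the podocyte gap depends on the array background. Mutant podocyte minus mesangial was -0.82 (adjusted p 0.0785), and it was called without mutant mesangial array C (-1.11, adjusted p 0.0326) and in a fit of all 18 arrays (adjusted p 0.0485).

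*Nt5e*, which makes adenosine from AMP, marked mesangial cells. The signals were 1288.2, 1247.0 and 951.4 on wild type and 958.9, 931.3 and 1084.3 on mutant mesangial arrays. In podocytes they were 335.5, 254.6 and 248.4 on wild type and 201.9, 231.5 and 108.0 on mutant arrays. In endothelial cells they ran from 58.1 to 74.7 over the 6 arrays, below the minimum, so no genotype test was made there at that minimum. With no minimum the endothelial difference was -0.08 (adjusted p 0.712). The 3 cell types did not overlap within either genotype.

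Between wild type cells the order of *Nt5e* was mesangial, podocyte, endothelial. Mesangial minus endothelial was 4.01 on the log2 scale (16.1-fold, adjusted p 7.46e-08), podocyte minus mesangial -2.06 (adjusted p 1.62e-05) and podocyte minus endothelial 1.95 (adjusted p 9.94e-06). Since endothelial signals lay under the minimum, the folds against them depend on the array background. The mutant arrays gave 3.87, -2.53 and 1.35 in the same order (adjusted p 2.99e-06, 8.18e-05 and 0.00200). Within podocytes the mutant arrays were all below the wild type ones, with a difference of -0.69 (SE 0.29, adjusted p 0.338), and within mesangial cells the groups overlapped, with -0.22 (SE 0.14, adjusted p 0.407). Without wild type mesangial array C the mesangial value was -0.36 (adjusted p 0.152) and the groups did not overlap, and without wild type mesangial array A it was -0.14 (adjusted p 0.629). The podocyte value was -0.36 (adjusted p 0.398) without mutant podocyte array C. The podocyte value moved with the lower mesangial marker sum on mutant podocyte arrays, whose part in it was not tested.

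The adenosine receptors lay close to the minimum. *Adora1*, a Gi-coupled adenosine receptor, ran from 88.2 to 102.9 on the wild type mesangial and endothelial arrays, from 95.7 to 107.2 on wild type podocyte arrays and from 79.6 to 97.6 on mutant mesangial and endothelial arrays. On mutant podocyte arrays it was 109.7, 142.7 and 157.1, which stood above all other arrays. The median signal of all transcript clusters was from 67.7 to 71.6 on these arrays and overlapped that of wild type podocyte arrays, from 66.7 to 68.8, and its part in the value was not tested. The *Adora1* difference in podocytes was 0.41 (SE 0.16, adjusted p 0.325, or 0.0439 in a fit of all 18 arrays), in endothelial cells -0.18 (adjusted p 0.353) and in mesangial cells -0.01 (adjusted p 0.951). Among mutant arrays podocytes exceeded mesangial cells by 0.50 (adjusted p 0.0221) and endothelial cells by 0.68 (adjusted p 0.00316), and the mesangial one of these was lost in 5 of 6 runs that left out 1 array (adjusted p 0.0538 to 0.0700). The cluster shared with *Mybph* gave 0.36 for the mesangial one (adjusted p 0.0944). For the genotype difference that cluster gave 0.26 in podocytes, and 0.14 for podocyte minus mesangial cells. Without mutant podocyte array A, the difference between genotype effects of *Adora1* was -0.73 for endothelial minus podocyte (adjusted p 0.00465, against 0.0699 with it) and 0.57 for podocyte minus mesangial (adjusted p 0.0315, against 0.295), where 13.8% and 3.14% of all clusters were called. In wild type cells none of the 3 *Adora1* differences was called, with sizes from 0.01 to 0.10.

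*Adora2a*, a Gs-coupled adenosine receptor, was highest in endothelial cells. The endothelial signals were 129.2, 111.2 and 178.7 on wild type and 118.4, 159.3 and 119.7 on mutant arrays, and the genotypes overlapped (difference -0.06, adjusted p 0.884). Podocyte arrays stayed under 100 throughout, from 82.3 to 97.8, so the genotype was not tested there at that minimum. With no minimum the podocyte difference was -0.11 (adjusted p 0.636). Podocytes were below endothelial cells by 0.60 on the log2 scale in wild type (adjusted p 0.0148) and by 0.66 in mutant cells (adjusted p 0.00260). Mesangial cells, at 92.7 to 107.9, lay between the others, and their neighbours in the order were not separated by the test (adjusted p 0.0750 and 0.429 in wild type cells). The wild type podocyte call was lost without podocyte array A (adjusted p 0.0505), and mesangial minus endothelial was called without endothelial array B (adjusted p 0.0260) and in a fit of all 18 arrays (adjusted p 0.0434). Among mutant arrays podocyte minus mesangial was -0.31 (adjusted p 0.0944), and it was called with array medians subtracted (-0.40, adjusted p 0.0448) and with quantile normalization (-0.38, adjusted p 0.0482). Mutant mesangial minus endothelial was -0.35 (adjusted p 0.0834), and it was called with array weights (-0.39, adjusted p 0.0258).

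*P2rx4*, a cation channel gated by ATP, was above 100 on all 18 arrays. Mesangial signals were 366.5, 318.1 and 330.7 on wild type and 265.9, 215.7 and 269.1 on mutant arrays. Endothelial signals were 198.1, 205.9 and 142.8 on wild type and 207.5, 261.4 and 209.2 on mutant arrays. Podocyte signals were 302.5, 248.4 and 273.7 on wild type and 329.1, 133.7 and 167.7 on mutant arrays. The mutant mesangial arrays lay wholly below and the mutant endothelial arrays wholly above their controls, while mutant podocyte array A lay above all podocyte arrays and B and C lay below them.

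The *P2rx4* difference was -0.44 in mesangial cells (SE 0.12, adjusted p 0.0995), 0.32 in endothelial cells (SE 0.16, adjusted p 0.333) and -0.49 in podocytes (SE 0.31, adjusted p 0.500). In mesangial cells the mesangial markers other than *Meis1* ran the same way. So did *Tek* and *Ehd3*, and the other endothelial markers only with wild type array C. The part of these markers was not tested. Without wild type mesangial array C the mesangial value of *P2rx4* was -0.46 (adjusted p 0.157). The endothelial value ran from 0.15 to 0.42 when any 1 array was left out (adjusted p 0.252 to 0.677). Without mutant podocyte array B the podocyte value was -0.22 (adjusted p 0.761). Without mutant podocyte array A it became -0.87 with an adjusted p of 0.0468. The difference in genotype effect, endothelial minus podocyte cells, then rose from 0.81 (adjusted p 0.171) to 1.19 (adjusted p 0.00651). Both changes stood beside the gain in calls over all clusters without this array. Wild type cells ranked mesangial, podocyte, endothelial, with mesangial above endothelial by 0.91 (adjusted p 0.00119) and podocyte above endothelial by 0.61 (adjusted p 0.00867, or 0.0627 in a fit of all 18 arrays). Podocyte and mesangial cells were not separated (-0.30, adjusted p 0.152). Among mutant arrays none of the 3 pairs was called for *P2rx4*. Without mutant podocyte array A, podocyte minus mesangial became -0.73 (adjusted p 0.00939) and podocyte minus endothelial became -0.59 (adjusted p 0.0171). The same values were -0.08 (adjusted p 0.830) and 0.06 (adjusted p 0.856) without mutant podocyte array B.

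*P2rx7*, the ATP channel known for inflammasome signalling and the chromosomal neighbour of *P2rx4* in RefSeq, followed the endothelium. Endothelial signals were 175.5, 225.4 and 209.6 on wild type and 265.7, 227.3 and 200.1 on mutant arrays. Mesangial signals were 145.4, 132.8 and 149.3 on wild type and 122.8, 113.3 and 93.9 on mutant arrays, and podocyte signals ran from 82.6 to 107.2. The wild type cell types did not overlap, in the order endothelial, mesangial, podocyte. Podocyte minus endothelial was -1.06 (adjusted p 9.10e-05), mesangial minus endothelial -0.51 (adjusted p 0.00796) and podocyte minus mesangial -0.55 (adjusted p 0.00618). Among mutant arrays the same differences were -1.40 (adjusted p 5.53e-05), -1.07 (adjusted p 4.07e-04) and -0.33 (adjusted p 0.109). By genotype *P2rx7* was -0.38 in mesangial cells, where the arrays did not overlap (SE 0.12, adjusted p 0.142). It was 0.18 in endothelial cells (adjusted p 0.502) and -0.16 in podocytes (adjusted p 0.592). The mesangial value ran the same way as the mesangial markers other than *Meis1* and as *Tek* and *Ehd3*. The other endothelial markers ran that way only with wild type array C, and the part of these markers was not tested. Without wild type mesangial array C the mesangial value of *P2rx7* was -0.35 (adjusted p 0.245). The endothelial value ran from 0.075 to 0.28 when any 1 array was left out (adjusted p 0.362 to 0.856).

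*P2ry1*, the Gq-coupled receptor for ADP, was the most endothelial of the receptors tested by size of difference. Endothelial signals were 394.4, 455.8 and 380.4 on wild type and 231.0, 363.6 and 229.8 on mutant arrays, and the mutant arrays all lay below. Podocyte signals were 101.4, 120.4 and 106.9 on wild type and 73.3, 46.4 and 66.3 on mutant arrays, again without overlap. Mesangial signals were 44.1, 54.9 and 174.0 on wild type and 63.9, 55.4 and 55.3 on mutant arrays. The value of 174.0 came from the array that also carried the high endothelial markers, whose part in it was not tested. Without that array no mesangial array reached the minimum and *P2ry1* was not tested by genotype in mesangial cells, while with it the difference was -0.37 (SE 0.48, adjusted p 0.694). Leaving out any other mesangial array gave values from -0.75 to -0.33 (adjusted p 0.402 to 0.801).

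By genotype *P2ry1* was -0.61 in endothelial cells (SE 0.18, adjusted p 0.163) and -0.84 in podocytes (SE 0.19, adjusted p 0.154). Leaving out mutant endothelial array B gave -0.83 and an adjusted p of 0.0241, and leaving out mutant podocyte array A gave -0.98 and 0.0493, where 1.72% and 2.88% of all clusters were called. The podocyte value moved with the endothelial marker sum, which was lower on mutant podocyte arrays, and its part was not tested. Between wild type cells mesangial minus endothelial was -2.45 (adjusted p 0.00157), or -3.06 without mesangial array C, and podocyte minus endothelial was -1.90 (adjusted p 0.00495). Podocyte minus mesangial was 0.54 (adjusted p 0.352) and became 1.15 (adjusted p 2.40e-04) without that array, but was 0.16 (adjusted p 0.798) without mesangial array A and 0.32 (adjusted p 0.657) without B. The mutant arrays gave -2.21, -2.14 and 0.07, the last of these not called. Since mesangial signals other than that of array C, and all mutant podocyte signals, lay below the minimum, the sizes of these differences depend on the array background.

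**Figure D3:**
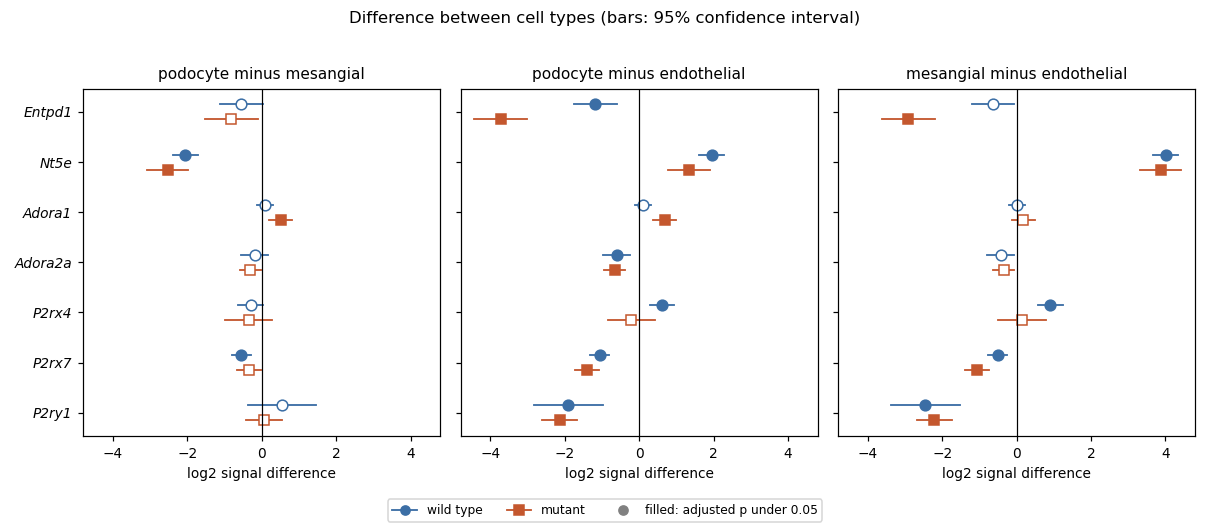
Log2 signal difference between cell types (point, with the 95% confidence interval as a bar) for the 7 genes tested, wild type blue and mutant orange, filled where the adjusted p was under 0.05. *Nt5e* lies far right of 0 in mesangial minus endothelial cells in both genotypes, *P2ry1* and *P2rx7* lie left of 0 against endothelial cells, and the *Entpd1* gap against endothelial cells is wider in mutant arrays.

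Over the 3 genotype comparisons, calls on these genes were few, as they were over all genes. In endothelial cells 1 of 6 genes tested was called at an adjusted p under 0.05, against 1.29% of all transcript clusters tested, and 2 passed the looser screen of the study (unadjusted p under 0.05 and a fold over 1.5), against 3.82%. In mesangial cells limma called 0 of 7 genes, 3 had an unadjusted p under 0.05 and 1 passed the screen, against 2.92% of all clusters called, 21.7% under the unadjusted 0.05 and 5.19% past the screen. In podocytes limma called 0 of 6 genes, 4 had an unadjusted p under 0.05 and 3 passed the screen, against 0.0578% called, 14.3% under the unadjusted 0.05 and 5.61% past the screen.

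Arrays of the genotypes did not overlap for 4 of 6 genes in endothelial cells (25.1% of all clusters), 3 of 7 in mesangial cells (28.6%) and 4 of 6 in podocytes (21.3%). The median difference of the genes tested was -0.37 in mesangial cells, -0.59 in podocytes and 0.06 in endothelial cells, beside -0.02, -0.04 and 0.07 over all clusters tested. These medians cover only the genes that reached the minimum.

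**Figure D4:**
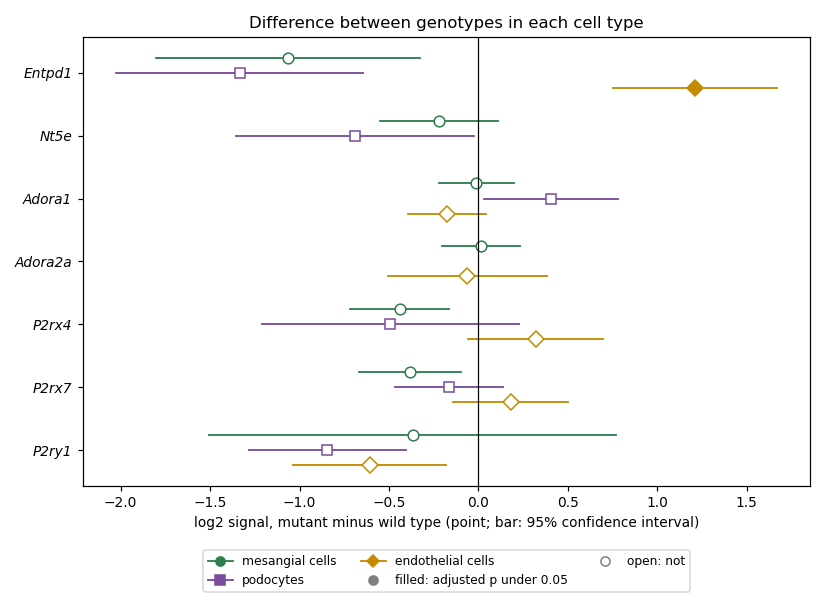
Log2 signal, mutant minus wild type, for each gene tested in mesangial cells (green circles), podocytes (purple squares) and endothelial cells (gold diamonds), with the 95% confidence interval as a bar. The *Entpd1* endothelial point at 1.21 is the filled one, and the *Entpd1* points of the other cell types lie on the opposite side of 0.

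Between wild type cell types, 2 of 7 genes were called for podocyte minus mesangial (27.9% of all clusters), 6 of 7 for podocyte minus endothelial (38.8%) and 4 of 7 for mesangial minus endothelial (32%). Between mutant cell types the counts were 2 (29%), 6 (47.1%) and 4 (22.8%) of 7. In the tests of the difference in genotype effect between cell types, limma called *Entpd1* only. That was 1 of 7 for endothelial minus mesangial (1.07%) and 1 of 7 for endothelial minus podocyte (2.11%). For podocyte minus mesangial it called 0 of 7 (0.717%), where 1 had an unadjusted p under 0.05 (12% of all clusters).

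The pathway also holds other enzymes, transporters, release channels and receptors, 38 listed genes of which 11 to 17 reached the minimum in a comparison. By genotype 1 of 11 tested in endothelial cells was called (1.29% of all clusters), and limma called 0 of 14 in mesangial cells (2.92%) and 0 of 12 in podocytes (0.0578%, or 7 of 12113 clusters). The called gene was *Ada*, adenosine deaminase, which turns adenosine into inosine. Its signals were 210.7, 151.7 and 162.7 on wild type and 513.4, 446.5 and 330.2 on mutant endothelial arrays, and 49.6 to 83.3 on all podocyte and mesangial arrays. Every endothelial array labelled mutant was above every wild type one, by 1.29 on the log2 scale (SE 0.19, adjusted p 0.0186). The leukocyte marker sums of mutant arrays A, B and C, 1301, 887.0 and 648.6, stood in the same order as *Ada*, and their part in the value was not tested. Since *Ada* lay below the minimum in the other cell types, no difference between cell types in its genotype value is given. Over the listed genes, tests of the difference in genotype effect called 1 of 17 higher for endothelial minus mesangial (1.07% of all clusters). They called 2 of 17 higher for endothelial minus podocyte (2.11%) and 1 of 17 lower for podocyte minus mesangial (0.717%). These counts keep genes such as *Ada* and *Acpp*, which reached the minimum in a single cell type. Background bounds the genotype value of such genes in the other cell types, so nothing is read from the counts.

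Other listed genes were highest in particular cell types, and several also reached the minimum in another. *Dpp4*, a peptidase that binds adenosine deaminase, ran from 2817 to 3472 on all podocyte arrays, and wild type podocytes exceeded endothelial cells by 4.29 (adjusted p 0.00408). On wild type endothelial arrays *Dpp4* was 271.3, 170.0 and 106.7. In mesangial cells it was 44.5, 48.6 and 716.4 on wild type arrays, where the high value belongs to array C. *Acpp*, a phosphatase that can also cleave AMP, was 422.5, 220.1 and 307.4 on wild type and 135.4, 96.2 and 100.5 on mutant podocyte arrays. The mutant podocyte arrays all lay below, by a difference of -1.48 that was not called (SE 0.25, adjusted p 0.134). On mesangial and endothelial arrays *Acpp* ran from 39.9 to 62.8, below the minimum.

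*P2rx1*, another channel gated by ATP, was at a mean of 594.4 in wild type mesangial cells, 121.8 in podocytes and 55.3 in endothelial cells (mesangial minus endothelial 3.42, adjusted p 3.41e-07). *P2ry6*, a receptor for UDP, had its highest mean among wild type cells in podocytes at 293.3, above endothelial cells by 2.09 (adjusted p 6.00e-06). The endothelial signals of *P2rx1* and *P2ry6*, at most 61.7 and 78.0 on wild type arrays, lay below the minimum, so the sizes of these differences depend on the array background. *Alpl*, an alkaline phosphatase, had its highest mean among wild type cells in endothelial cells, at 213.2. Its signals on wild type podocyte arrays were 107.9, 146.5 and 99.6. Wild type mesangial minus endothelial was -1.52 (adjusted p 0.00669), where only array C of the wild type mesangial arrays reached the minimum, at 131.2.

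**Figure D5:**
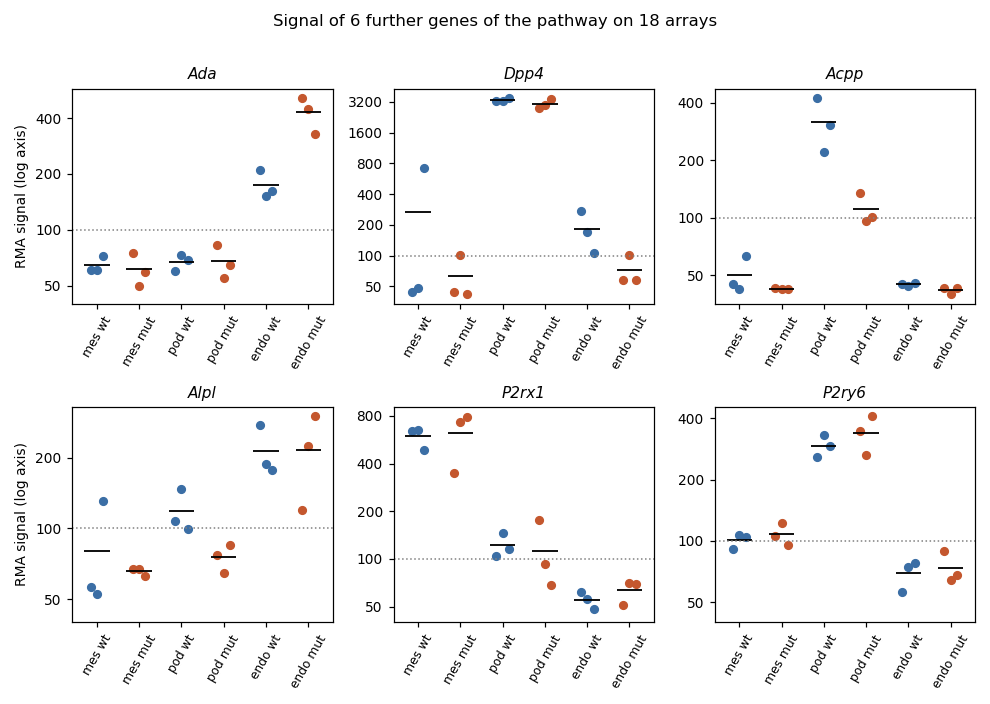
RMA signal (log axis) of 6 further genes on 18 arrays, 1 point per array, blue for wild type and orange for mutant, with a line at the mean and a dotted line at the minimum of 100. *Ada* is higher on mutant than wild type endothelial arrays, *Dpp4* and *P2ry6* are highest in podocytes, and the high wild type mesangial *Dpp4* point at 716.4 is array C.

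The clusters whose log2 signal was most like each gene's over the 18 arrays were sought among 11131 clusters, as a description in which the cell types and arrays are shared. *Nt5e* was closest to *Dock10* (r 0.994), *Lrp1* and *Gucy1b3*, and *P2ry1* to *Mpped2* (r 0.979), *Ddit4l* and *Efr3b*. *P2rx7* was closest to *Vsig2* (r 0.978), *Acvrl1* and *Esam*, and *Entpd1* to *Myst3* (r 0.957), *Mapre2* and *Pik3r3*. *Adora1* was closest to *Dok2* (r 0.953), *Ptprv* and *Mir25*, *Adora2a* to *Nqo2* (r 0.878), *Sipa1l2* and *Adcy4*, and *P2rx4* to *Snx6* (r 0.870), *Fam33a* and *Tmem59*.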

How the data were processed

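The table held the signals of 18 arrays, 3 for each of 6 groups, assigned by the deposited labels; columns name a group but not a sample, so arrays have no pairing. Per the labels and the file headers, the authors made gene level RMA values (background correction, quantile normalization, probe summary) and deposited them as an intensity signal on a linear scale, with a log2 form of the same values centred on each cluster's median, in 18 columns that were not used. The study's methods name GeneSpring, and its series record names Exon arrays and GeneBASE instead. Array medians lay between 62.8 and 71.6, and the number of arrays limits the precision. The RNA-seq was not analysed here. The reporter of the podocyte sort is not reported here.

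Log2 signals were fitted by limma 3.58.1 in R 4.3.3 (lmFit, eBayes, no covariates). Genotypes were fitted over 6 arrays, cell types over the 9 arrays of a genotype, and differences in genotype effect between cell types over 18. A cluster entered when any array of the fit reached 100, Benjamini-Hochberg adjustment ran over all of them, and a call is an adjusted p under 0.05. The fit was tested on simulated data with the same spread in every group. That test did not cover the mutant podocyte arrays being less alike than those of other groups. P-values measure the spread between arrays, which the study calls biological triplicates.

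The genes, lists and tests were chosen with earlier results of these data known. All 9 genes are named, as are listed pathway genes called between genotypes or, for a wild type cell type comparison, up to 3 called ones of largest difference, and the 3 clusters of most like pattern. Alternatives were other signal minimums, trend and robust eBayes, array medians, quantile normalization, array weights, a fit of all 18 arrays, the study's screen, the other cluster of a gene and leaving out each array.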

Additional observations from a re-analysis of the deposited data

Results flagged for a closer look

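The genotype difference of *Entpd1* was not the same in all cell types by a test of the difference itself. In endothelial minus mesangial cells it was 2.28 on the log2 scale (adjusted p 0.0176 by limma), and every mutant endothelial array lay above its controls while every mutant mesangial array lay below. In endothelial minus podocyte cells it was 2.55 (adjusted p 0.0166), with every mutant podocyte array below its controls. Both values use the same endothelial arrays. Their direction rests on the endothelial labels, since *Cd2ap* ran from 891.4 to 965.8 on endothelial arrays labelled mutant against 757.2 to 858.5 on wild type ones. Each call was lost in 3 of the runs that left out 1 array. Mutant podocyte signals of *Entpd1* lay near or below the minimum. Endothelial marker sums were 655.8 to 2484 on mutant against 4224 to 5625 on wild type podocyte arrays, and their part in the value was not tested.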

How the results depend on the processing

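No paired analysis was possible because the arrays of different groups share no replicate number and the columns carry none. With a study screen in place of the adjusted p, the number of genes called was 1 in mesangial cells, 3 in podocytes and 2 in endothelial cells. A fit of all 18 arrays called 2 in podocytes (*Entpd1* and *Adora1*), where calls over all clusters went from 0.0578% to 6.91%, and 0 in endothelial cells (1.65% of all clusters), and no signal minimum called 0 in endothelial cells (0.288%). Leaving out 1 array gave 0 to 2 genes called in podocytes (0 to 2.88% of all clusters), 0 to 2 in endothelial cells (0.438% to 2.26%) and 1 to 3 for mutant podocyte minus mesangial (18.9% to 36.2%). For the differences in genotype effect it gave 0 to 1 for podocyte minus mesangial (0.327% to 3.14%) and 0 to 1 for endothelial minus mesangial (0.631% to 1.31%). For that difference in endothelial minus podocyte it gave 0 to 3 (0.223% to 13.8%). The highest of these shares for podocytes and for the comparisons with podocytes given here came without mutant podocyte array A. The *Entpd1* calls for the difference in genotype effect, endothelial minus mesangial and endothelial minus podocyte, were lost in 3 runs each (adjusted p up to 0.0604 and 0.0524). The cause of these changes was not tested.

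No value was called with the turned sign. Values below given for a single cell type are genotype effects. Those given for a pair of cell types are differences in genotype effect, unless wild type or mutant is named. With array medians subtracted *Adora2a* was -0.0014 in mesangial cells, 0.0096 in endothelial cells and 0.011 for endothelial minus mesangial, and *P2ry1* was -0.022 for mutant podocyte minus mesangial. With array weights *Adora2a* was -0.020 in mesangial cells. With quantile normalization *P2ry1* was -0.023 for mutant podocyte minus mesangial and *P2rx4* was 0.0041 for mutant podocyte minus endothelial. Leaving out 1 array turned the sign of 11 gene values, over these ranges. *Adora2a* ran from -0.21 to 0.13 in endothelial cells, -0.057 to 0.053 in mesangial cells, -0.23 to 0.12 for endothelial minus mesangial and -0.098 to 0.24 for endothelial minus podocyte. *P2rx4* ran from -0.43 to 0.22 for the genotype effect in podocyte minus mesangial and -0.59 to 0.064 for the level in mutant podocyte minus endothelial. *Adora1* ran from -0.074 to 0.015 in mesangial cells and -0.020 to 0.075 for wild type mesangial minus endothelial. *P2ry1* ran from -0.85 to 0.14 for the genotype effect in endothelial minus mesangial and -0.065 to 0.26 for the level in mutant podocyte minus mesangial. *Entpd1* ran from -0.56 to 0.026 for the genotype effect in podocyte minus mesangial.

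Depth has no counterpart on an array, and signals near the minimum of 100 lie close to the array background.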
